A study of Bos taurus with 8 samples.

Results

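The 10 genes PRSS2, NUP210, DNM1, OSBP2, TSR2, ITM2C, RIN2, PYROXD2, PTPRR and PTPRB were chosen by their log2 difference between normal crossbred and normal Tharparkar cows, as measured on these arrays, and every probe of the array that names one of them was read: 21 probes of 43653, or 10 genes of 15127 tested. RNA came from peripheral blood mononuclear cells, the blood fraction of lymphocytes and monocytes, of 3 groups: lame crossbred cows (4 arrays, titled R1_1, R1_2, R2_1 and R2_2), normal crossbred cows (2 arrays, R1 and R2) and normal cows of the Tharparkar, a zebu breed (2 arrays, R1 and R2). The arrays were 1-colour Agilent bovine arrays read with the dye Cy3, and the labels give Bos taurus as the organism of all 3 groups. They do not give the parent breeds of the crossbred cows, the animals' ages, or whether an RNA sample is 1 cow or a pool, and they say that RNA was run as technical duplicates. Lame cows were all crossbred, so that a comparison of lame with Tharparkar cows joins breed type and lameness, which cannot be told apart there.

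These genes have unrelated tasks. PRSS2 encodes a trypsinogen, the inactive form of trypsin that the pancreas secretes. DNM1, OSBP2 and RIN2 act on membranes: dynamin 1 is the GTPase that cuts clathrin-coated vesicles from the plasma membrane and is best known from nerve terminals, OSBP2 belongs to the oxysterol-binding proteins that carry lipids between membranes, and RIN2 activates the endosomal GTPase RAB5. NUP210 spans the nuclear envelope at the nuclear pore. TSR2, known from yeast, escorts the ribosomal protein of the RPS26 gene to the ribosome. ITM2C is a membrane protein that, in human cells, slows the cleavage of the amyloid precursor protein. PYROXD2 is a flavin-dependent oxidoreductase of mitochondria. PTPRR and PTPRB are receptor-type tyrosine phosphatases: PTPRR removes phosphate from the kinase ERK, and PTPRB acts on the endothelial receptor TIE2.

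Levels are given on the log2 scale as the processed signal of a probe relative to the 75th percentile of all noncontrol probes of its array, so that 0 is as bright as that percentile. The level of 1 probe cannot be set against that of another, and differences are read within a probe. Between 52.8% and 61.4% of probes were well above background, the scanner software's flag for a measured spot, except on lame array R2_2 with 70.9%, whose median raw signal was 192.5 (74 to 102 elsewhere). Values of all genes correlated at 0.981 between the lame R2 arrays and at 0.995 to 0.997 between the other duplicates, so the 8 arrays read as 4 RNA samples, of which 2 were lame and each normal group had 1. P-values from arrays therefore measure the spread between arrays, technical duplicates included, and understate the spread between cows. In bulk blood cells, fewer cells of a type and less RNA per cell cannot be told apart. Marker levels, summed on the linear scale, differed between the normal groups. For T cells they were 119 to 142 in lame, 198 to 211 in normal crossbred and 110 to 111 in Tharparkar cows. For NK and cytotoxic cells they were 50.2 to 93.6, 151 to 163 and 62.9 to 67.7, and for B cells 97.6 to 162, 157 to 158 and 169 to 190. Their part in the levels of the 10 genes was not tested.

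The choice of genes used the normal crossbred and normal Tharparkar arrays, and the lame arrays took no part in it. The difference between the normal groups is accordingly described and not tested for these genes. By its size the 10 genes ranked between 23 (PRSS2) and 194 (PTPRB) of 15127 genes. In normal crossbred cows 7 genes were higher (PRSS2, NUP210, DNM1, OSBP2, TSR2, PTPRR and PTPRB) and 3 were lower (ITM2C, RIN2 and PYROXD2) than in normal Tharparkar cows. Across all 24641 tested probes 17.7% were called between the normal groups at an adjusted p under 0.05 (9.71% higher and 7.97% lower in normal crossbred cows), and across all genes 18.7% (11.8% higher and 6.89% lower), from which nothing is read here.

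Of the 21 probes, 15 met the filter on dim signals (measured on all arrays of some group) and were tested, and the other 6 were not. In lame crossbred against normal Tharparkar cows, 10 of the 15 were higher and 5 were lower (limma, Benjamini-Hochberg over 24641 probes). Among those higher, DNM1 probes A_73_108684 and A_73_P288801 passed the filter through the lame arrays alone, which favours a higher lame level. Of all tested probes, 21.6% were called in that comparison, 11.8% higher and 9.8% lower. The comparison shares the Tharparkar arrays with the choice of genes, so that these calls are no independent evidence. In lame against normal crossbred cows, 4 of the 15 probes were higher and 1 was lower, where 7.34% of all tested probes were called (3.2% higher and 4.14% lower), and this comparison shares the normal crossbred arrays with the choice. With the RNA sample as a random block, which lets duplicate arrays share their deviation, 9 of the 15 calls against Tharparkar cows and all 5 against normal crossbred cows were lost, and those of PRSS2, OSBP2, TSR2 and 3 DNM1 probes against Tharparkar cows held. For the brightest probe of each gene, the size of the log2 difference ran between 0.04 (NUP210) and 2.35 (ITM2C) in that comparison, and between 1.12 (ITM2C) and 5.0 (DNM1) in lame against Tharparkar cows.

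**Figure D1:**
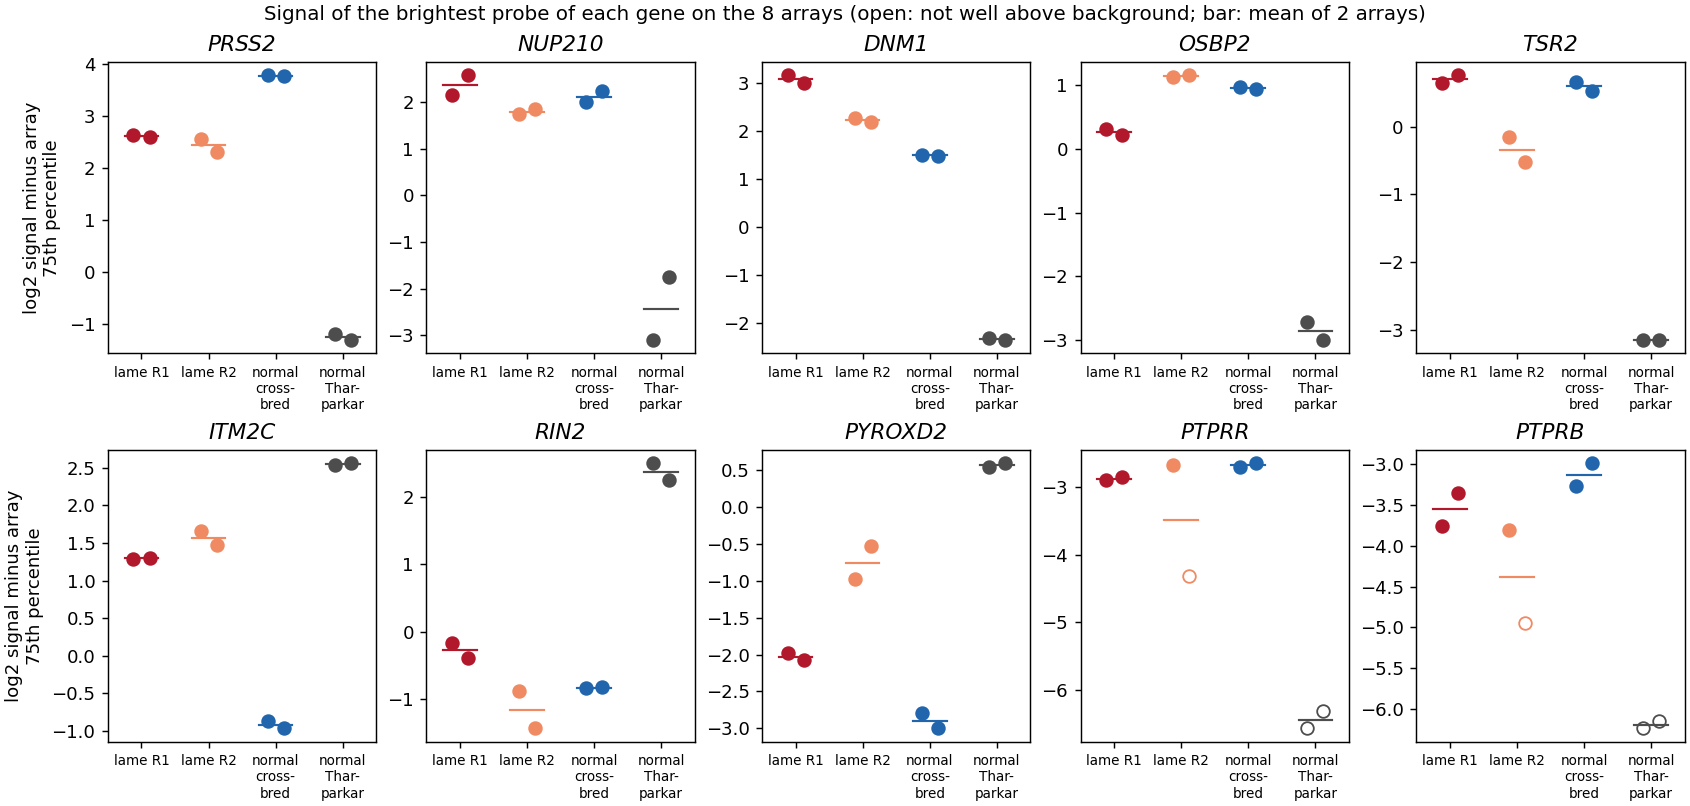
Level of the brightest probe of each gene (log2 signal minus the array's 75th percentile) on the 8 arrays, by RNA sample (both lame samples first, Tharparkar last). Points are arrays, bars are means of 2 arrays, and open points are not well above background. The lame arrays lie on the normal crossbred side of the Tharparkar arrays for every gene, which the choice of genes by the same Tharparkar arrays favours. For PTPRR and PTPRB this side turned under the normexp background correction.

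PRSS2, the trypsinogen, was far brighter in both crossbred groups than in Tharparkar cows. Its single probe (A_73_119222) read 2.63 and 2.60 on the lame R1 arrays, 2.57 and 2.31 on the lame R2 arrays, 3.79 and 3.78 on the normal crossbred arrays, and -1.19 and -1.30 on the Tharparkar arrays. The 3 groups did not overlap, with the lame arrays between the others. As processed signals, these were 1710 to 1852 units in lame, 3442 and 3445 in normal crossbred, and 94.2 and 84.6 in Tharparkar cows. The lame level was 13.7-fold that of Tharparkar cows (log2 difference 3.77, SE 0.15, limma adjusted p = 4.61e-05; 2.91 under normexp). It was lower than in normal crossbred cows (-1.25, SE 0.15, adjusted p = 0.00528). The second call rested on both normal crossbred arrays: adjusted p was 0.112 without R1 and 0.0909 without R2, and 0.335 with the RNA sample as a random block. Trypsinogen genes are close copies of each other, and whether the probe also reads another copy was not tested. PRSS1, another trypsinogen gene, was well above background on 1 lame, 0 normal crossbred and 1 Tharparkar array.

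The pancreatic acinar cell is the usual source of trypsinogen, so its markers were read beside PRSS2. Of 13 listed acinar markers 11 were on the array, and their summed level, on the linear scale relative to the 75th percentile, was 1.80 to 2.63 in lame, 1.05 to 1.18 in normal crossbred and 1.19 to 1.2 in Tharparkar cows. The sum rests mostly on AMY2B and CELA1, which alone were well above background on all 8 arrays (mean log2 levels of 0.13 and -0.61 in lame cows). The other markers averaged -3.66 (CPB1) or less in lame cows. CPA1, CTRC, CEL and LOC280930 were well above background on 1 lame array and on no other. PNLIP, pancreatic lipase, and PLA2G1B, pancreatic phospholipase, were well above background on 0 of the 8 arrays. The part of these markers in the PRSS2 result was not tested. Among other genes of trypsin-type proteases, 2 of 7 rose in lame against Tharparkar cows and 0 fell (12.6% and 10.7% of all genes). Their median log2 difference was 0.44, against -0.01 over all genes. Under normexp 0 of the 7 were called and the median was -0.45 (all genes -0.16), under quantile normalization 1 was called and the median was -0.04, and with the random block 0 were called. KLK12, a kallikrein, was not well above background in Tharparkar cows, and the lame arrays were at least 3.19-fold brighter (adjusted p = 0.000481). CELA2A, a pancreatic elastase, was called too (adjusted p = 0.00955). With 1 of 4 lame arrays and 0 Tharparkar arrays well above background, the size of its difference is not measured. Under the normexp background correction both differences were below 0, at -0.10 for KLK12 and -0.53 for CELA2A.

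A2M, alpha-2-macroglobulin, which traps proteases, was higher in lame than in Tharparkar cows (3.38, SE 0.34, adjusted p = 0.000962; adjusted p = 0.0946 with the random block; 1.04 under normexp). It was the 1 called gene of 5 measured protease inhibitors, whose median was 0.10 (-0.39 under normexp and -0.55 under quantile normalization). Of 3 measured protease-activated receptors, which proteases switch on by cutting them, 2 rose: F2RL3 (2.15, adjusted p = 0.000962) and F2R (1.2, adjusted p = 0.0175). In lame against Tharparkar cows 12.6% of all genes were higher and 10.7% lower. With the random block adjusted p was 0.0485 for F2RL3 and 0.540 for F2R, and with duplicates averaged it was 0.0404 and 0.630. Under normexp F2RL3 alone was called (0.98) and the median of the 3 was -0.09. F2RL3 and F2R are best known from platelets. The summed level of 6 measured platelet markers was 17.5 to 20.2 in lame, 14.9 to 15.8 in normal crossbred and 9.31 to 9.99 in Tharparkar cows, and its part in these 2 results was not tested. The sign of F2R turned under normexp (-0.09). Against normal crossbred cows, the protease PRSS23 was lower in lame cows (-2.41, adjusted p = 0.0021) and PRSS57, a granulocyte protease, was higher (3.49, adjusted p = 0.0082). In lame against normal crossbred cows 3.29% of all genes were higher and 6.33% lower. Of 11 tested granulocyte markers, the 1 that was higher in this comparison was PRSS57 itself and 6 were lower, with a median of -1.69. Their summed level was 152 to 200 in lame, 201 to 213 in normal crossbred and 198 to 206 in Tharparkar cows. This sum rests mostly on S100A8 and S100A12, with mean log2 levels of 6.23 and 6.51 in lame and 6.52 and 6.63 in normal crossbred cows. It therefore says little about the other granulocyte markers. The part of these markers in the PRSS57 result was not tested. The inhibitor ITIH4 was lower (-0.71, adjusted p = 0.0226).

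DNM1 was higher in lame than in Tharparkar cows by all 4 of its probes, although 2 dim ones turned sign under the normexp background correction. These 2 passed the filter on dim signals through the lame arrays alone, so that their higher lame level is partly set by the filter. The brightest probe (A_73_P049221) read 3.15 and 3.0 on the lame R1 arrays, 2.26 and 2.19 on the lame R2 arrays, 1.5 and 1.48 on the normal crossbred arrays, and -2.33 and -2.37 on the Tharparkar arrays. The 3 groups stood apart, with lame highest. The lame level was 32.0-fold that of Tharparkar cows (log2 difference 5.0, SE 0.30, limma adjusted p = 0.000177), and normexp gave 3.62. Against normal crossbred cows the difference of this probe was 1.16 (SE 0.30, adjusted p = 0.0651).

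The second DNM1 probe (A_73_P402066) read 0.39, 0.19, -0.39 and -0.42 on the lame arrays, -1.64 and -1.68 on the normal crossbred arrays, and -3.94 and -4.25 on the Tharparkar arrays, 1 of which was well above background. It too put lame highest with no overlap of groups, and both comparisons were called, at 4.04 (SE 0.27, adjusted p = 0.00028) against Tharparkar cows and 1.61 (SE 0.27, adjusted p = 0.0167) against normal crossbred cows. Under normexp the first was 1.22. The third (A_73_108684) read -2.59, -2.70, -3.35 and -3.07 in lame, -4.39 and -4.48 in normal crossbred, and -6.30 and -6.28 in Tharparkar cows. Since neither Tharparkar array was well above background, the lame level was at least 2.59-fold that of Tharparkar cows (adjusted p = 0.00031). Lame against normal crossbred cows gave 1.51 (SE 0.23, adjusted p = 0.0128), with 1 of 2 normal crossbred arrays well above background. The fourth (A_73_P288801) was well above background on the 4 lame arrays and on 0 of the others, with bounds of at least 1.98-fold over Tharparkar cows (adjusted p = 0.0136) and at least 2.66-fold over normal crossbred cows (adjusted p = 0.0945).

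Both calls of DNM1 against normal crossbred cows were lost under several settings. Normexp gave 1.03 (adjusted p = 0.0620) for the second probe and 0.19 (0.851) for the third, and with no filter on dim probes adjusted p was 0.0888 and 0.0752. Quantile normalization gave 0.53 for the third (0.752), and with the random block adjusted p was 0.366 and 0.331. Without normal crossbred R1 the adjusted p was 0.198 for the second probe and 0.161 for the third, and without R2 it was 0.171 and 0.154. Under normexp the lame minus Tharparkar difference was -0.36 for the third probe and -0.31 for the fourth, and quantile normalization ended both calls (adjusted p = 0.107 and 0.108). The fourth probe was no longer called without Tharparkar R2 (adjusted p = 0.105) or with no filter on dim probes (0.0572). DNM2, the dynamin that most cells use, differed by 0.13 between lame and Tharparkar cows (adjusted p = 0.717). Of 20 other measured genes of clathrin-mediated uptake, 2 rose and 1 fell (12.6% and 10.7% of all genes), with a median of -0.15. SNX9, a dynamin-binding sorting nexin, rose (0.88, adjusted p = 0.0296), its relative SNX18 fell (-0.93, adjusted p = 0.0108), and the clathrin adaptor EPN1 rose (0.85, adjusted p = 0.0228). SNX9 was lower in lame than in normal crossbred cows (-0.99, adjusted p = 0.0358) and EPN1 higher (0.88, adjusted p = 0.0364).

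RIN2 was lower in both crossbred groups than in Tharparkar cows. Its brightest probe (A_73_116597) read -0.16 and -0.39 on the lame R1 arrays, -0.87 and -1.43 on the lame R2 arrays, -0.83 and -0.82 on the normal crossbred arrays, and 2.50 and 2.25 on the Tharparkar arrays. The lame arrays lay on both sides of the normal crossbred arrays and well below the Tharparkar arrays. Lame cows were 8.49-fold lower than Tharparkar cows (-3.09, SE 0.34, adjusted p = 0.0016). A second probe (A_73_P073821) gave -2.78 (SE 0.24, adjusted p = 0.00067), with -2.20, -2.34, -2.59 and -1.72 in lame, -2.57 and -2.71 in normal crossbred, and 0.60 and 0.53 in Tharparkar cows. Against normal crossbred cows the differences were 0.12 (adjusted p = 0.874) and 0.43 (adjusted p = 0.324). With the RNA sample as a random block, adjusted p against Tharparkar cows was 0.0718 and 0.133, and normexp gave -2.48 and -1.89.

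Of 12 other measured genes of the RAB5 pathway on early endosomes, 2 fell in lame against Tharparkar cows and 0 rose. Of all genes 10.7% fell and 12.6% rose. The median of the 12 was -0.16. RABGEF1, another activator of RAB5, fell (-1.43, SE 0.29, adjusted p = 0.0135), and RAB31, a GTPase related to RAB5, fell (-1.18, SE 0.13, adjusted p = 0.0014). The 3 forms of RAB5 itself differed by -0.62 (RAB5A, adjusted p = 0.0646), -0.40 (RAB5B, adjusted p = 0.530) and -0.31 (RAB5C, adjusted p = 0.362). In lame against normal crossbred cows RAB31 (-0.64, adjusted p = 0.0267) and RAB22A (-0.63, adjusted p = 0.0423), both GTPases of the RAB5 group, were lower.

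OSBP2 was higher in both crossbred groups than in Tharparkar cows, and the lame RNA samples differed from each other. The tested probe (A_73_P142286) read 0.31 and 0.21 on the lame R1 arrays, 1.13 and 1.15 on the lame R2 arrays, 0.97 and 0.94 on the normal crossbred arrays, and -2.71 and -3.0 on the Tharparkar arrays. Normal crossbred arrays lay between the 2 lame RNA samples, and Tharparkar arrays lay below all others. Lame cows had 11.8-fold the level of Tharparkar cows (3.56, SE 0.32, adjusted p = 0.00073; 1.84 under normexp), and it differed by -0.25 from normal crossbred cows (adjusted p = 0.672). OSBP, the founding member of the family, differed by 0.54 between lame and Tharparkar cows (adjusted p = 0.285). Of 8 other measured genes of the family and its membrane anchors, 1 fell and 0 rose (10.7% and 12.6% of all genes). Their median was -0.03. The one that fell was VAPA, the anchor that binds these proteins to the endoplasmic reticulum (-0.85, adjusted p = 0.0287).

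NUP210 was higher in both crossbred groups, and its Tharparkar arrays disagreed. The tested probe (A_73_116765) read 2.14 and 2.57 on the lame R1 arrays, 1.75 and 1.84 on the lame R2 arrays, 1.99 and 2.24 on the normal crossbred arrays, and -3.10 and -1.75 on the Tharparkar arrays. The normal crossbred arrays lay within the range of the lame arrays. In lame cows the level was 22.7-fold that of Tharparkar cows (4.50, SE 0.39, adjusted p = 0.00068; adjusted p = 0.123 with the RNA sample as a random block; 2.85 under normexp). The normal crossbred level differed from that of Tharparkar cows by 5.10 within slide 1 and 3.99 within slide 2. Of 25 other measured nuclear pore genes, 2 fell in lame against Tharparkar cows and 0 rose (10.7% and 12.6% of all genes). Their median was -0.13 (0.14 under quantile normalization). NUP93, a scaffold protein of the pore (-0.89, adjusted p = 0.0138), and NUP37, part of its outer ring (-0.98, adjusted p = 0.0148), were the 2 that fell.

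TSR2 was higher in both crossbred groups on its single probe (A_73_119298). It read 0.64 and 0.76 on the lame R1 arrays, -0.15 and -0.53 on the lame R2 arrays, 0.65 and 0.53 on the normal crossbred arrays, and -3.15 on both Tharparkar arrays. The lame R1 arrays lay nearer to the normal crossbred arrays than the lame R2 arrays did, and all 6 crossbred arrays lay above the Tharparkar arrays. Lame cows were brighter than Tharparkar cows (3.33, a 10.04-fold level, SE 0.37, adjusted p = 0.0016; 1.34 under normexp), and it differed by -0.41 from normal crossbred cows (adjusted p = 0.538).

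RPS26, whose protein TSR2 escorts, differed by -0.12 between lame and Tharparkar cows (adjusted p = 0.786). Of 12 other measured genes of small ribosomal subunit assembly and the TSR2 disease pathway, 1 rose and 2 fell (12.6% and 10.7% of all genes). Their median was -0.18 (0.09 under quantile normalization). NOB1 (-0.81, adjusted p = 0.0168) and PNO1 (-0.81, adjusted p = 0.0178), which act in the last steps of small subunit maturation, fell. GATA1, a transcription factor of red cells and platelets, rose (1.33, adjusted p = 0.0403), and its sign turned under normexp (-0.04). The summed level of erythroid markers, of which 9 of the 11 on the array were measured on some array, was 12.5 to 22.3 in lame, 7.65 to 8.76 in normal crossbred and 7.02 to 7.5 in Tharparkar cows. HBM and CA1 were well above background on 0 of the 8 arrays, and the part of red cells or platelets in the GATA1 result was not tested.

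ITM2C differed between all 3 groups, with lame cows between the normal groups. Its brightest probe (A_73_114742) read 1.29 and 1.30 on the lame R1 arrays, 1.66 and 1.47 on the lame R2 arrays, -0.87 and -0.96 on the normal crossbred arrays, and 2.54 and 2.56 on the Tharparkar arrays. No group overlapped another, and the lame arrays were closer to the Tharparkar arrays. The lame level was 5.09-fold that of normal crossbred cows (2.35, SE 0.16, adjusted p = 0.00076) and 2.17-fold lower than that of Tharparkar cows (-1.12, SE 0.16, adjusted p = 0.0042). The second probe (A_73_P255971) gave 2.37 (SE 0.19, adjusted p = 0.0012) and -1.10 (SE 0.19, adjusted p = 0.0088), with 0.01, -0.18, 0.35 and 0.21 in lame, -2.16 and -2.37 in normal crossbred, and 1.31 and 1.08 in Tharparkar cows. Without Tharparkar R1 the 2 probes gave adjusted p = 0.0587 and 0.104 against Tharparkar cows, and without Tharparkar R2 0.0570 and 0.0633. With the RNA sample as a random block, adjusted p against normal crossbred cows was 0.0534 and 0.0912, and normexp gave 1.87 and 1.61.

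In human blood ITM2C marks plasma cells and plasmacytoid dendritic cells. The summed level of 8 plasma cell markers on the array was 44.1 to 46.8 in lame, 52.7 to 56.9 in normal crossbred and 68.9 to 73.4 in Tharparkar cows. For 8 markers of plasmacytoid dendritic cells it was 49.1 to 64.5 in lame (64.1 in R1 and 52.4 in R2), 56.8 to 59.7 in normal crossbred and 80.8 to 85.2 in Tharparkar cows. In lame against normal crossbred cows 1 of these 8 was higher and 0 were lower (3.29% and 6.33% of all genes), with a median of 0.47. Of 7 tested plasma cell markers 0 were called. The part of these markers in the ITM2C result was not tested. ITM2B, the relative of ITM2C that most cells express, differed by -0.28 between lame and Tharparkar cows (adjusted p = 0.181). In lame against Tharparkar cows 10.7% of all genes fell and 12.6% rose. Of 10 other measured genes of the family and of amyloid precursor cleavage, 2 fell and 0 rose, with a median of 0.27 (-0.05 under normexp). Those were the gamma-secretase subunits PSENEN (-0.77, adjusted p = 0.0437) and APH1A (-0.53, adjusted p = 0.0468).

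PYROXD2 was lower in lame than in Tharparkar cows, and the lame RNA samples lay far apart. Its single probe (A_73_111061) read -1.98 and -2.08 on the lame R1 arrays, -0.98 and -0.53 on the lame R2 arrays, -2.80 and -3.0 on the normal crossbred arrays, and 0.54 and 0.59 on the Tharparkar arrays. The 3 groups did not overlap, with lame in the middle. Lame cows were 3.88-fold lower than Tharparkar cows (-1.96, SE 0.44, adjusted p = 0.0208; -1.43 under normexp), and its difference from normal crossbred cows was 1.51 (SE 0.44, adjusted p = 0.0898). The call was lost without Tharparkar R1 (adjusted p = 0.135), without Tharparkar R2 (0.137) and with the RNA sample as a random block (0.215). PYROXD1, the nearest relative, differed by -0.03 between lame and Tharparkar cows (adjusted p = 0.948). Of 12 other measured flavin oxidoreductases, 1 rose and 1 fell (12.6% and 10.7% of all genes), with a median of -0.13. SMOX, which oxidises spermine, rose (1.73, adjusted p = 0.0311), and MAOA, monoamine oxidase A, fell (-0.64, adjusted p = 0.0212).

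PTPRR and PTPRB were dim in every group, and neither was well above background in Tharparkar cows. PTPRR (A_73_100808) read -2.90 and -2.85 on the lame R1 arrays, -2.67 and -4.32 on the lame R2 arrays, -2.70 and -2.65 on the normal crossbred arrays, and -6.57 and -6.32 on the Tharparkar arrays. Lame array R2_2 was not well above background and stood apart from the other 3. The lame level was at least 2.17-fold that of Tharparkar cows (limma adjusted p = 0.0036), and the normal crossbred level at least 3.09-fold, but under the normexp background correction the log2 differences were -0.25 and -0.06. PTPRB (A_73_P121696) read -3.75 and -3.36 on the lame R1 arrays, -3.81 and -4.95 on the lame R2 arrays, -3.27 and -2.99 on the normal crossbred arrays, and -6.24 and -6.15 on the Tharparkar arrays. Again lame R2_2 was the lowest crossbred array and was not well above background. The bounds were at least 1.26-fold for lame over Tharparkar cows (adjusted p = 0.00998) and at least 2.25-fold for normal crossbred over Tharparkar cows, against -0.49 and -0.23 under normexp.

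Both phosphatase calls depended on single arrays and on the scaling. With the random block adjusted p was 0.295 for PTPRR and 0.356 for PTPRB. Without Tharparkar R1, it was 0.0514 for PTPRR and 0.0943 for PTPRB, and without Tharparkar R2 it was 0.0822 for PTPRB. Quantile normalization gave 0.115 and 0.315. Differences between lame and normal crossbred cows were -0.51 for PTPRR (adjusted p = 0.528) and -0.84 for PTPRB (adjusted p = 0.259). The 4 other measured receptor-type tyrosine phosphatases lay between -0.06 and 0.60 in lame against Tharparkar cows, with no call, and PTPRC, which encodes CD45 of all white blood cells, differed by 0.10 between lame and Tharparkar cows (adjusted p = 0.617). Among 7 measured genes of ERK and its phosphatases 1 fell (10.7% of all genes), PTPN5 (-1.72, adjusted p = 0.0418), a neuronal relative of PTPRR. Partners of PTPRB in blood vessels, ANGPT1 and JUP, were measured and not called. The endothelial marker sum was 1.76 to 4.11 in lame (1.77 in R1 and 3.19 in R2), 1.88 to 1.97 in normal crossbred and 1.58 to 1.62 in Tharparkar cows. In the normal groups it rests mostly on PECAM1, with mean log2 levels of 0.68 in normal crossbred and 0.23 in Tharparkar cows (0.58 in lame cows). The markers TEK, ESAM and EMCN were well above background on 0 of the 8 arrays.

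The array carried 1 probe for 4 of the 10 genes (PRSS2, TSR2, PYROXD2 and PTPRR). For 3 others (NUP210, OSBP2 and PTPRB) it carried several, of which 1 was tested. For DNM1, ITM2C and RIN2 at least 2 were tested, and within each of these genes all tested probes gave the same direction in lame against Tharparkar cows, apart from the 2 dimmest DNM1 probes under normexp. For these 2 probes the filter on dim signals itself favours the direction seen without normexp. In lame against normal crossbred cows the RIN2 probes differed in sign when both arrays of lame R1 were left out (-0.32 and 0.49). Over the 8 arrays, the Pearson correlation was 0.997 between the ITM2C probes, 0.926 between the RIN2 probes and 0.782 to 0.996 between pairs of DNM1 probes, as a description of probes read on the same arrays, some below background. The 8 arrays include the normal arrays by which the genes were chosen, which favours a high correlation. For normal crossbred minus Tharparkar the ITM2C probes gave -3.47 and -3.46 and the RIN2 probes -3.20 and -3.21. The brightest DNM1 probe gave 3.84 and the second 2.43, with 1 of 2 Tharparkar arrays measured (2.51 and 0.18 under normexp). For the other 2 DNM1 probes this difference has no measured size, since Tharparkar arrays were not well above background.

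**Figure D2:**
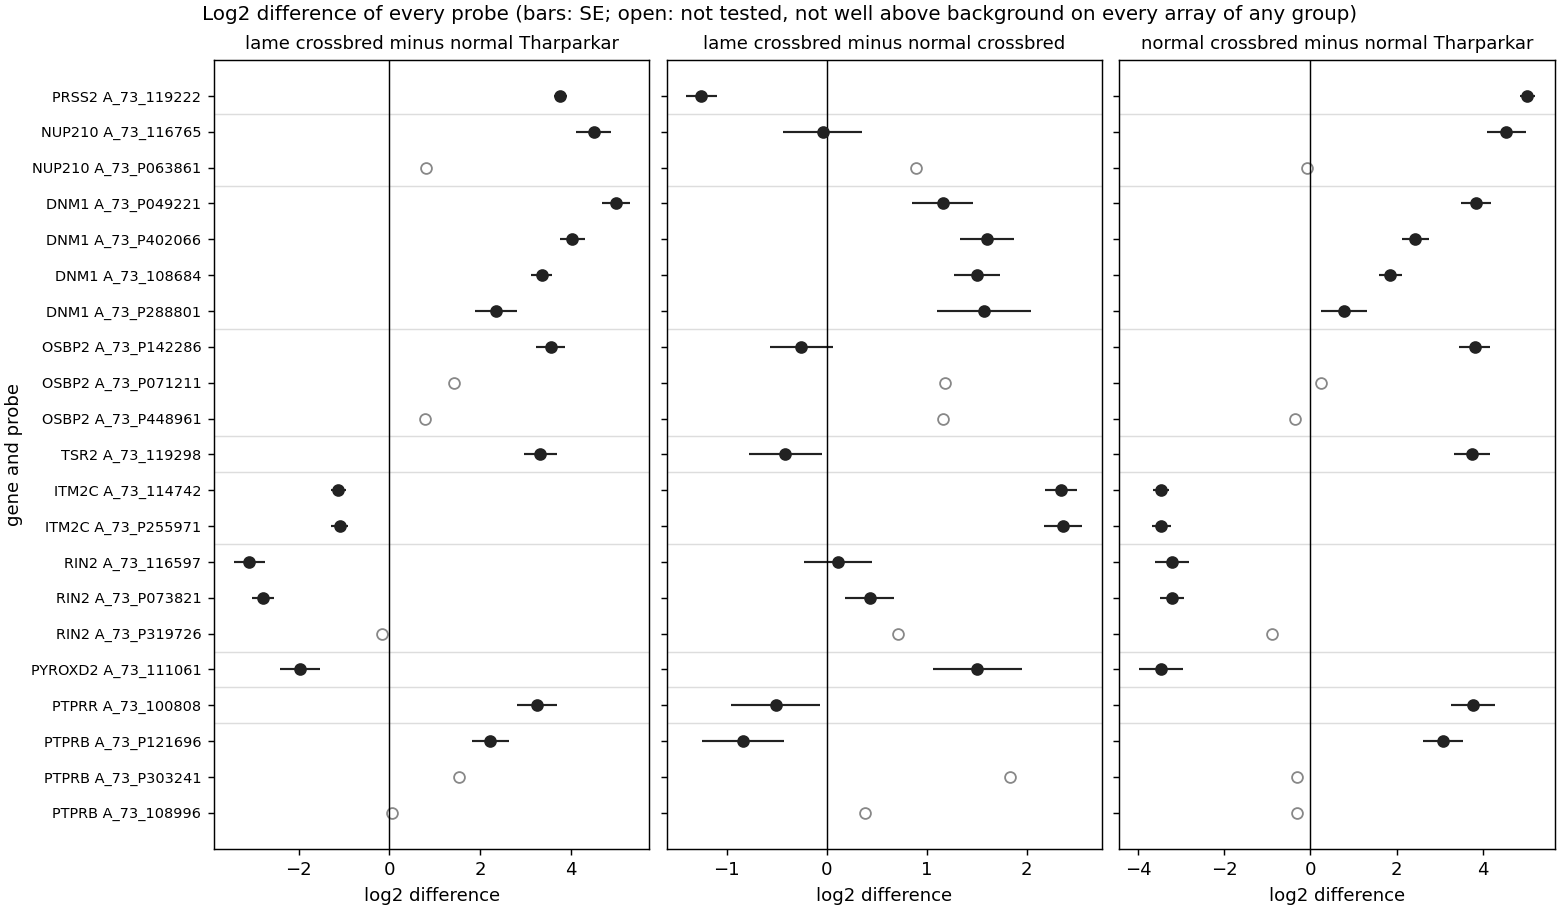
Log2 difference of all 21 probes in 3 comparisons: lame crossbred minus normal Tharparkar, lame crossbred minus normal crossbred, and normal crossbred minus normal Tharparkar. Points are differences of group means, bars are standard errors, and open points are untested probes. In lame minus Tharparkar the tested probes of DNM1, ITM2C and RIN2 fall on the same side of 0 within a gene, although 2 DNM1 probes, PTPRR and PTPRB turned sign under normexp. The same 2 DNM1 probes passed the filter on dim signals through the lame arrays alone. Where a group was not well above background the size is not measured.

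None of the 6 untested probes was well above background on a normal array, so they carried no measurement of the difference between the normal groups. OSBP2 probe A_73_P448961, RIN2 probe A_73_P319726 and PTPRB probe A_73_108996 were well above background on 0 of the 8 arrays. NUP210 probe A_73_P063861 was well above background on both lame R2 arrays, at -3.78 and -2.73, and read -5.09 and -5.53 on the lame R1 arrays. OSBP2 probe A_73_P071211 likewise was measured on the lame R2 arrays alone, at -3.82 and -2.06, against -6.69 and -7.11 on the lame R1 arrays. PTPRB probe A_73_P303241 was well above background on 1 lame array, R2_1. These 3 probes had their signal on arrays of the lame R2 RNA, 1 of which was the brightest array of the series, and the part of that brightness was not tested. Probe sequences were not analysed here.

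The lame arrays were not used to choose the genes, so their place between the normal groups was read for each RNA sample, as a share of the way from the Tharparkar mean to the normal crossbred mean on the log2 scale. This needs both ends measured, so PTPRR, PTPRB and 3 dimmer DNM1 probes, which were not well above background on all normal arrays, were left out. By the brightest probe of the other 8 genes, both lame RNA samples were past the midpoint for 6, 1 was for PYROXD2, and neither was for ITM2C. NUP210 (105% in lame R1 and 92.9% in lame R2), RIN2 (82.7% and 110%), OSBP2 (81.8% and 105%) and TSR2 (103% and 75.1%) lay around the normal crossbred mean. PRSS2 reached 76.8% and 73.3%. DNM1 went beyond the normal crossbred mean, at 141% and 119% by its brightest probe. ITM2C stayed at 36.2% and 28.4% by 1 probe and 36.9% and 26.4% by the other, and PYROXD2 at 74.9% and 38.1%. These shares share their end points with the choice of genes and are a description of 2 lame RNA samples.

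**Figure D3:**
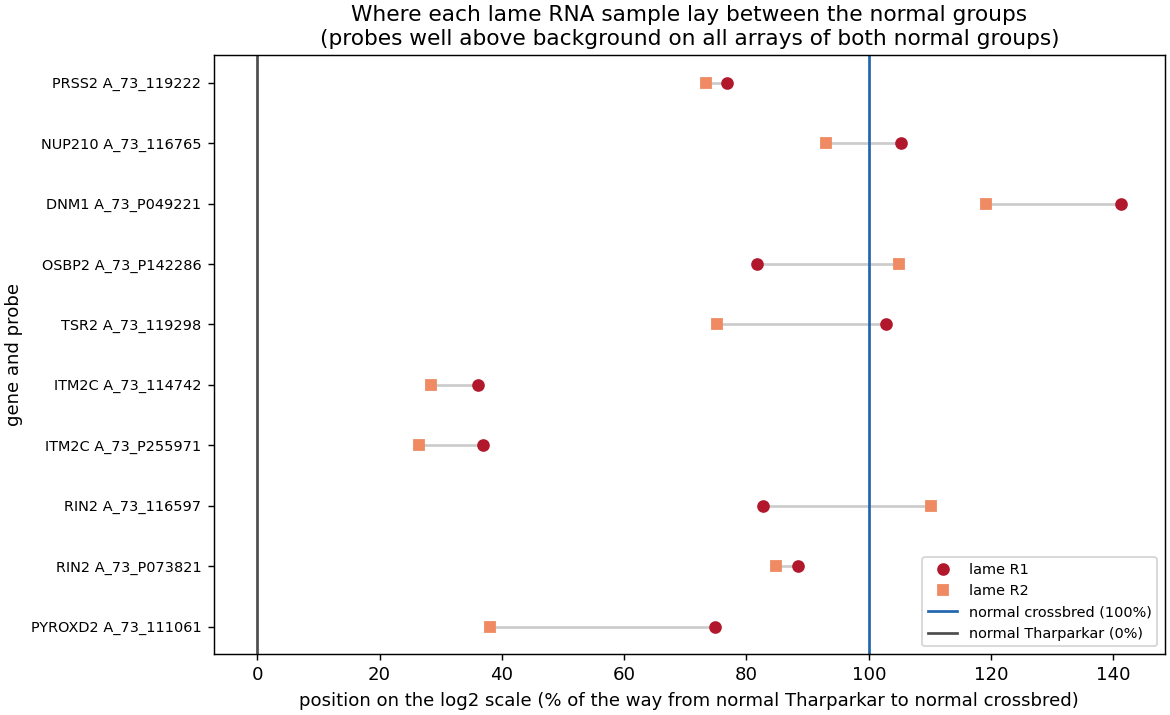
Position of lame R1 (circles) and lame R2 (squares) in % of the way from the normal Tharparkar mean to the normal crossbred mean on the log2 scale, for the 10 probes well above background on all normal arrays. ITM2C lies nearest to the Tharparkar end, the brightest DNM1 probe beyond the normal crossbred mean, and PRSS2, NUP210, OSBP2, TSR2 and RIN2 between 73.3% and 110%.

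The difference between the lame RNA samples is independent of how the genes were chosen. Both lame R1 arrays were above both lame R2 arrays for 8 of the 15 tested probes (of PRSS2, NUP210, DNM1, TSR2, RIN2 and PTPRB), both lame R2 arrays were above for 4 (of OSBP2, ITM2C and PYROXD2), and the arrays overlapped for 3. Of all tested probes, 39.5% had lame R1 above and 37.6% lame R2 above in the same sense, so that most probes separated the lame RNA samples. The largest differences among the 15 were -1.28 for PYROXD2 (lame R1 minus lame R2) and 1.04 for TSR2. Over the 15 probes the median size was 0.62, against 0.50 over all genes. The 2 RNA samples are 1 each in duplicate, so no test was made. The median SD between duplicate arrays was 0.09.

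Of 127 measured genes of the lists, 21 (16.5%) were called in lame against Tharparkar cows, where 23.3% of all 15127 genes were called (12.6% higher and 10.7% lower) and the comparison shares its Tharparkar arrays with the choice of the 10 genes. With the RNA sample as a random block 1 of the 21 was called, F2RL3 (adjusted p = 0.0485). With duplicates averaged, 3 were called, KLK12, A2M and F2RL3, with normexp 9 and with quantile normalization 15. Against normal crossbred cows 7 of the 127 (5.51%) were called, where 9.62% of all genes were (3.29% higher and 6.33% lower), and 0 of them with the random block.

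**Figure D4:**
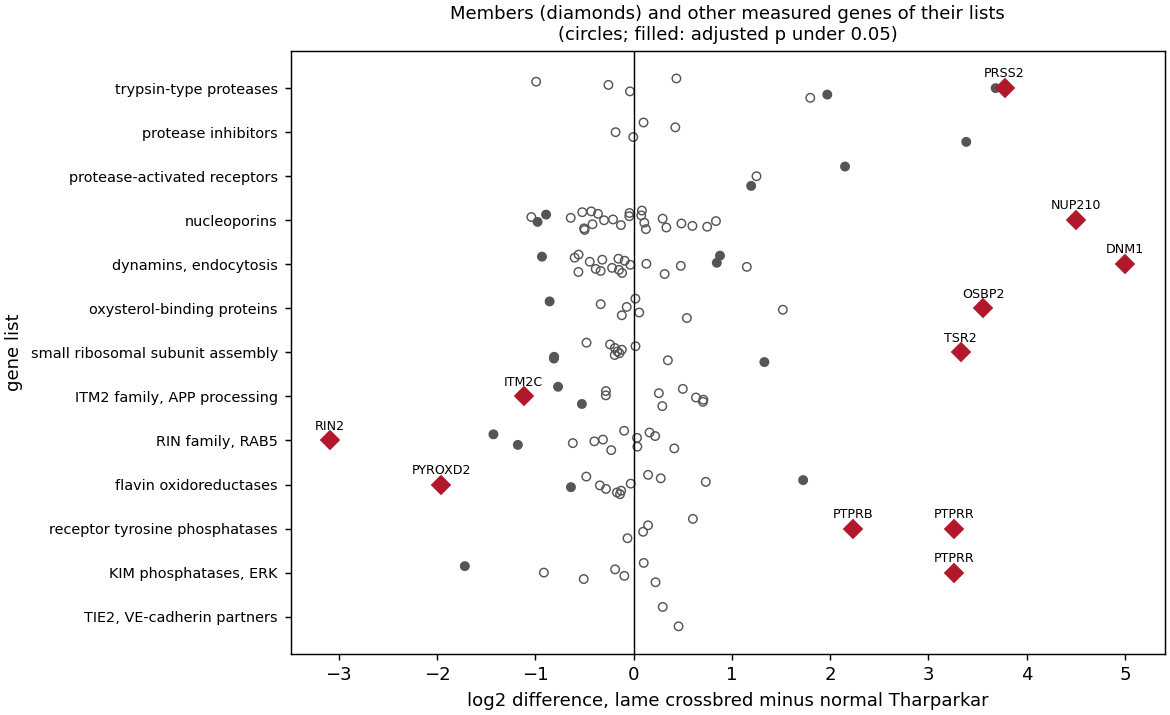
Log2 difference, lame crossbred minus normal Tharparkar, of the 10 genes (diamonds) and of the other measured genes of their lists (circles, filled at an adjusted p under 0.05). The diamonds lie at or near the ends of most lists. The choice of the 10 genes used the same Tharparkar arrays and favours this place. PTPRR, PTPRB, KLK12 and CELA2A were not well above background in Tharparkar cows, so their size is not measured. Under normexp PTPRR, PTPRB, KLK12, CELA2A, F2R and GATA1 turned sign.

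Genes near the 10 on the chromosomes were read as the 3 nearest measured genes on either side, in the order of the RefSeq gene table (assembly ARS-UCD2.0). Many were not adjacent: 18 to 61 other annotated genes lay between PRSS2 and its neighbours, and 0 to 15 for the other members. Of 54 such neighbours, 4 were higher and 4 lower in lame against Tharparkar cows, where 12.6% of all genes were higher and 10.7% lower. The median size of the neighbours' log2 difference was 0.49, against 0.43 over all genes. Beside OSBP2, the vitamin B12 carrier TCN2 (1.19, adjusted p = 0.00168) and the transporter SLC35E4 (1.33, adjusted p = 0.0112; -0.05 under normexp) rose and the chromatin protein MORC2 fell (-0.76, adjusted p = 0.0335). Beside ITM2C, SP140L rose (0.82, adjusted p = 0.00803) and PSMD1, a proteasome subunit, fell (-0.78, adjusted p = 0.0238). CRNKL1, a splicing factor near RIN2, rose (0.66, adjusted p = 0.0283), and near PYROXD2 both CRTAC1 (-1.80, adjusted p = 0.0332) and GOT1, an aspartate aminotransferase (-0.74, adjusted p = 0.0448), fell. With the RNA sample as a random block 0 of these 8 calls held. Against normal crossbred cows 1 neighbour was higher (SELENOM) and 4 were lower (LOC509513, TCN2, CRTAC1 and SLC2A13) in lame cows. Over all genes 3.29% were higher and 6.33% lower in that comparison.

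PTPRR and PTPRB were neighbours of each other among the measured genes, so that they are not separate places in the genome. CPNE8, a calcium-dependent membrane-binding protein near PTPRR, was well above background on both Tharparkar arrays and on 0 normal crossbred arrays. Its level was at least 10.2-fold lower in normal crossbred than in Tharparkar cows. This bound did not hold under normexp, where the log2 difference was -1.44. In lame cows it averaged -2.69 in R1 and -5.68 in R2 (lame minus Tharparkar -2.80, adjusted p = 0.0791). LOC617654 ran the other way, with the normal crossbred level at least 7.98-fold that of Tharparkar cows. That bound too did not hold under normexp (log2 difference 0.77). The lame means of LOC617654 were -5.26 in R1 and -3.28 in R2. KCNMB4, a potassium channel subunit, was at least 1.48-fold brighter in normal crossbred than in Tharparkar cows, and this sign turned under normexp (-0.40). These 3 were named after their values were seen. Each normal group is 1 RNA sample in duplicate, so their difference between the normal groups is described and not tested.

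**Figure D5:**
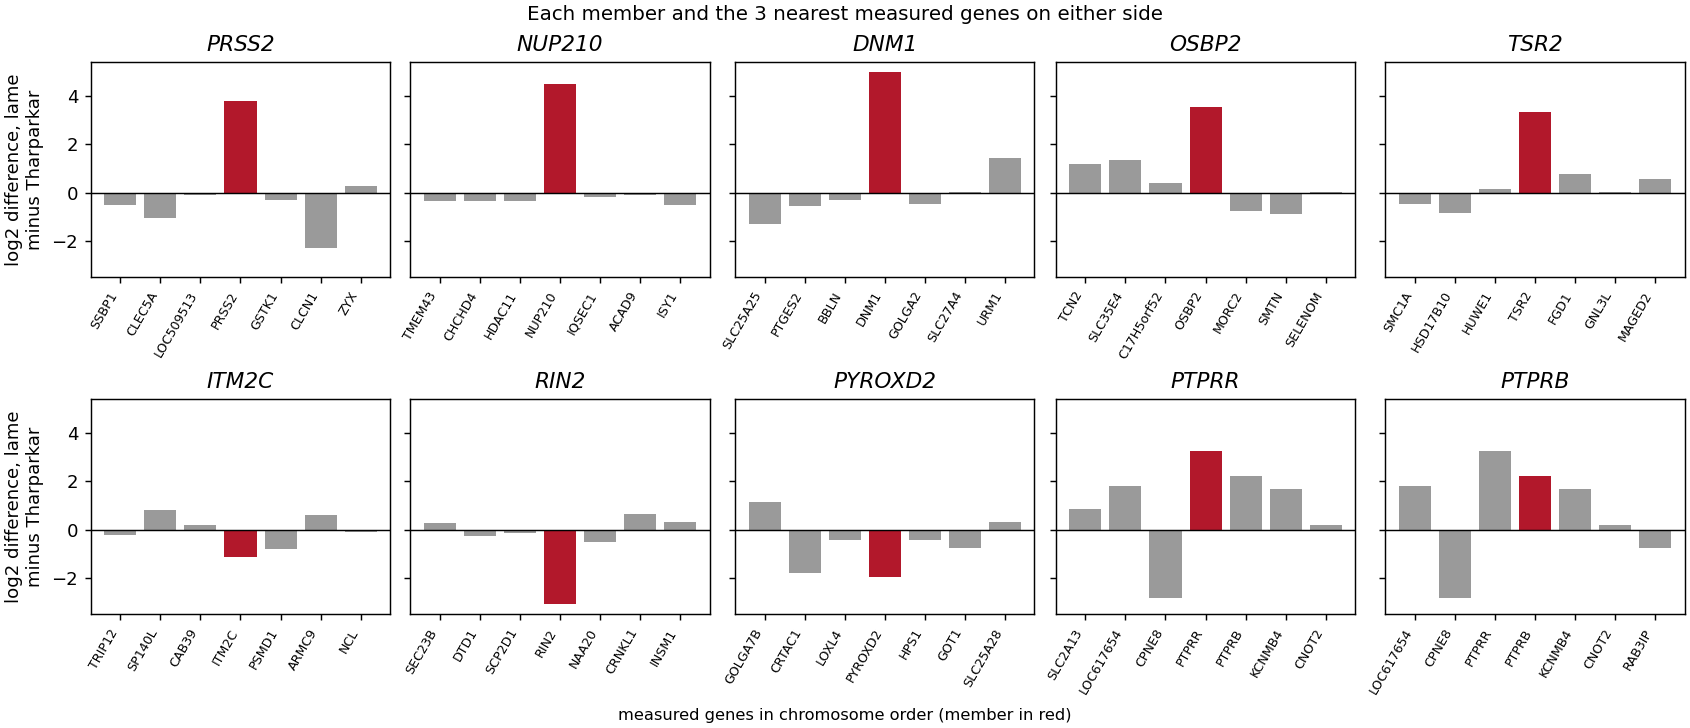
Log2 difference, lame crossbred minus normal Tharparkar, of each of the 10 genes (red) and of the 3 nearest measured genes on either side (grey), in chromosome order. Among the grey bars CPNE8 (-2.80) and CLCN1 (-2.31) are lowest. Under normexp 12 bars above 0 here, PTPRR, PTPRB, SLC35E4, LOC617654 and KCNMB4 among them, were below 0, and 4 below 0 were above.

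The genes whose pattern over the 8 arrays came nearest to each of the 10 were found by the root mean square difference of array values centred on their own mean. KLK12 came nearest to PRSS2 (0.41), A2M to OSBP2 (0.26), COL6A1, a collagen, to ITM2C (0.27), HYAL2, a hyaluronidase, to RIN2 (0.28) and CALY to PYROXD2 (0.31). TMEM161A came nearest to NUP210 (0.35), MRS2, a mitochondrial magnesium channel, to TSR2 (0.33), the transcription factor HINFP to DNM1 (0.43) and MTBP to PTPRB (0.38). TSR2 itself came nearest to PTPRR (0.36). The second nearest were S100A14, HINFP, UNC93A, RUFY2, MGRN1, LOC100848469, CFAP96, FMO2, CDKN1C and THOC7, in the order in which the 10 genes are listed at the start. There are 4 RNA samples behind the 8 arrays, and the likeness is a description. KLK12, S100A14, TMEM161A, UNC93A, CDKN1C, RUFY2, MRS2 and FMO2 were not well above background on 1 to 3 of the arrays.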

How the data were processed

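The authors deposited 1 scanner file per array with the intensity of every spot, background-subtracted by Agilent Feature Extraction and not scaled between arrays, per the file headers. The headers name version 12.0.3.1 and the submitters' processing notes 11.5.1.1. They also deposited a table of log2 values. Set against the scanner values, each of its columns was log2 signal minus the array's 75th percentile and the probe's median (r above 0.9999 over 43653 probes), so that higher means brighter, with column medians of 0.00, -0.13, 0.00 and 0.88 (lame R1_1, R1_2, R2_1 and R2_2), -0.07 and -0.12 (normal crossbred) and 0.03 and 0.09 (Tharparkar). It served as an alternative, and its scale is not stated by the sources used here.

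From the processed signal of 43653 noncontrol probes, log2 levels were computed relative to each array's own 75th percentile. Probes marked as outliers on an array (56) were left out, 0 were saturated, and a probe was tested when all arrays of some group measured it well above background. Accessions without versions were matched to RefSeq genes of ARS-UCD2.0 (27054 of 43653 probes). No coordinates are given. For lists, neighbours and likeness the probe with the highest mean stood for a gene. The test was limma's moderated one (version 3.58.1, under R 4.3.3, 2-sided, 1 fit with 3 group means, 5 residual and 2.34 prior degrees of freedom), with Benjamini-Hochberg adjustment. It was run on simulated data whose arrays were drawn independently of each other. That check cannot show the effect of technical duplicates, which share their deviation. Where a group was not well above background on any array, "at least" sets the brighter mean against the dim group's floor, which is either the dimmest measured probe of an array or the dim probe itself, whichever is higher.

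The 10 genes, the gene lists and the markers were chosen with earlier results of these data known. Named genes are all probes of the 10, in each list up to 3 called genes and the closest relative, all called neighbours, and the 2 genes nearest in pattern. Named outside this rule, after their values were seen, were PRSS1, RAB5B, RAB5C, ANGPT1, JUP, the neighbours CPNE8, LOC617654, KCNMB4 and CLCN1, and markers. These markers were at background or made up most of a summed level. Adjusted p of lists and neighbours is over 15127 genes (over genes under the alternatives too), of the 10 genes over 24641 probes. The restriction of the lame position to probes measured on all normal arrays was chosen after the data were seen. The normexp alternative used the median signal, since the files used here hold no mean signal column. Slides 1 and 2 each held arrays of all groups. Arrays of the same number lay on the same slide, and their deviations correlated at 0.09 to 0.33, with lame R2_1 and Tharparkar R1 lowest. The number of arrays limits the precision.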

Additional observations from a re-analysis of the deposited data

Results flagged for a closer look

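The PTPRR probe stood out in 1 group: lame array R2_2 lay apart from the other 3 lame arrays, with a gap of 0.860 of the group's whole range, above Dixon's 95% critical value for 4 values. It read -4.32 there, against -2.90, -2.85 and -2.67 on the other lame arrays, -2.70 and -2.65 on the normal crossbred arrays, and -6.57 and -6.32 on the Tharparkar arrays. Array R2_2 was not well above background for this probe, and it was the brightest array of the series by its median raw signal. The 4 lame arrays are 2 RNA samples in duplicate, and chance alone sets apart about 1 group in 20.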

How the results depend on the processing

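Lame minus Tharparkar gave 5327 calls. It gave 2904 with normexp (930 higher and 1974 lower, against 2912 and 2415), 1803 with no filter on dim probes, 3528 with 1 probe per gene, 659 with duplicates averaged, 205 with the RNA sample as a random block, 13554 with array weights, 14616 without both arrays of lame R1 and 13663 without both of lame R2. Leaving out 1 array gave 923 (Tharparkar R1) to 6316, with 1003 without Tharparkar R2, 3119 without normal crossbred R1 and 3317 without R2. Lame minus normal crossbred gave 1808 calls, against 674 with normexp (162 higher and 512 lower, against 789 and 1019), 319 with no filter, 207 with duplicates averaged, 24 with the random block, 10846 with array weights, 12119 without both arrays of lame R1 and 10598 without both of lame R2. Leaving out 1 array gave 98 (normal crossbred R1) to 2363, with 133 without normal crossbred R2, 684 without Tharparkar R1 and 686 without R2. The same-numbered arrays of the groups share a slide, not an animal. The replicate block gave 4315 calls for lame minus Tharparkar and 1115 for lame minus normal crossbred, and it changed no call of the 15 probes. With duplicates averaged the fit has 4 observations and an infinite prior, so a call follows from the size of the difference alone.

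Of the 15 tested probes, calls of lame minus Tharparkar were lost for 9 with the random block, for 5 without Tharparkar R1 and for 5 without R2, for 4 with duplicates averaged, for 4 with quantile normalization and for 3 with no filter. All 5 calls of lame minus normal crossbred were lost with duplicates averaged and with the random block. Normexp turned lame minus Tharparkar to -0.36 and -0.31 (DNM1, 2 probes), -0.25 (PTPRR) and -0.49 (PTPRB), and normal crossbred minus Tharparkar to -0.54, -0.59, -0.0589 and -0.23 for the same probes. It moved the median lame minus Tharparkar difference of all genes to -0.16. The cause of these changes was not tested.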
